A study of Homo sapiens with 22 samples.

Results

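Transcripts of 38 genes of glycolysis and the hypoxia response were compared across treatment groups in tumours grown from H2110, a human lung adenocarcinoma cell line. The genes were picked by name for their place in these pathways; no measured value enters the rule, but the list was drawn up with earlier results of these data known. They comprise 19 enzymes of glycolysis and lactate formation, 4 transporters of glucose and lactate, the pyruvate dehydrogenase kinase PDK1, 12 targets of hypoxia-inducible factor (HIF) outside glycolysis, and the 2 oxygen-regulated HIF subunits. They are 38 of the 58735 genes in the deposited table of read counts, and all 38 were among the 17652 genes that passed the filter on low counts.

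The tumours came from H2110 cells injected into a host whose species the sources used here do not give, and were labelled wild type in all groups. Dosing by mouth on 3 consecutive days began when tumours measured about 300 mm³. The drug groups held 4 tumours each, given RMC-7977, an inhibitor of active RAS proteins, at 10 mg/kg, RMC-4550, an inhibitor of the phosphatase SHP2, at 30 mg/kg, trametinib at 0.3 mg/kg or cobimetinib at 3 mg/kg, both inhibitors of the kinase MEK, and 6 further tumours received Vehicle. By its title the study concerned the RAS-related GTPase RIT1 as a target in this cancer. All tumours derive from 1 cell line, and doses differ between drugs, so that drugs are compared here at these doses only. No label ties a tumour to an animal of its own, so the error behind every p-value is the scatter among the sampled tumours and may be partly technical.

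Glycolysis splits glucose into pyruvate, and tumour cells often turn that pyruvate into lactate, which monocarboxylate transporters carry out of the cell. When oxygen is short, the HIF alpha subunits HIF1A and EPAS1 escape destruction and bind, with a partner, to short DNA sites near genes of glycolysis, acid balance, vessel growth and mitochondrial turnover. Signalling through RAS and ERK is also known to raise glucose uptake and glycolytic gene expression, in part through MYC.

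Library totals ran from 7761987 to 17265754 counts. Trametinib replicate 4 stood apart, with a median correlation of 0.751 with the other tumours and 25% of its counts in ribosomal protein genes. RMC-7977 replicate 3 also held few genes with only 1 or 2 counts (5.02% of detected genes), and Vehicle replicate 1 and RMC-4550 replicate 1 had the next lowest median correlations, 0.933 and 0.936. These are the 4 libraries apart in what follows. Libraries also leaned towards GC-rich or GC-poor genes, and the Spearman correlation of each library's departures with GC content ran from −0.424 to 0.332 in RMC-7977 tumours, from −0.584 to 0.276 in RMC-4550 tumours, from −0.484 to 0.0539 in Trametinib tumours, from −0.231 to 0.5 in Cobimetinib tumours and from −0.538 to 0.426 in Vehicle tumours. The 8 markers of lung adenocarcinoma epithelium were all tested and summed to between 2160 and 4380 CPM (counts scaled to a common library size) per tumour. Markers of other cell types summed to less, with 21.4 to 305 CPM for 8 fibroblast genes, 19.2 to 226 CPM for 8 endothelial genes and 6.96 to 38.7 CPM for 8 myeloid genes. The sums of 8 skeletal muscle genes and 6 erythroid genes reached at most 55 and 53 CPM. The part of these cell types in the results was not tested. In bulk tissue, fewer cells of a type and less RNA per cell cannot be told apart.

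Measured per length, as RPKM (CPM per kilobase of exon), the enzymes GAPDH, TPI1, ENO1 and LDHA held the highest levels among the 38 genes in Vehicle tumours. GAPDH, the dehydrogenase that starts the second stage of glycolysis, averaged 840 ± 83.9 RPKM (SD, n = 6), TPI1 averaged 347 ± 101 RPKM and ENO1 averaged 294 ± 55.4 RPKM. LDHA, which turns pyruvate into lactate, averaged 196 ± 41.7 RPKM. TPI1 and ENO1 differed by less than the SD of either, as did pyruvate kinase PKM (151 ± 22.6 RPKM) and PGAM1 (148 ± 42 RPKM). At the low end of the enzymes were ENO2, the neuronal-type enolase (6.42 ± 2.83 RPKM), PFKFB4 (6.13 ± 2.74 RPKM), PFKM (5.58 ± 1.38 RPKM) and ALDOA (4.01 ± 1.37 RPKM). ENO2, PFKFB4 and PFKM differed from their neighbours in this order by less than their SD, and PFKM and ALDOA by more than the SD of either.

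ALDOA, the main aldolase of muscle and of many tumours, thus stood below ALDOC at 17.5 ± 6.3 RPKM. In the annotation, 42.31% of the exonic bases of ALDOA are shared on the same strand with another annotated gene, AC093512.2, whose own level was 4.34 ± 2.16 CPM in Vehicle tumours. Reads on shared bases may be left out or split by the counting, so the level of ALDOA is uncertain. LDHB shares 33.42% of its exonic bases in the same way with AC010197.2, and CA9 and ANKRD37 share 38.5% and 35.23% with ARHGEF39 and UFSP2 on the opposite strand. The libraries were strand-specific, but the strand setting of the counting is not given in the sources used here.

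Among transporters, the glucose carrier SLC2A1 (GLUT1) averaged 84.3 ± 21.8 RPKM in Vehicle tumours and the second glucose carrier SLC2A3 (GLUT3) 0.443 ± 0.244 RPKM. The lactate carriers SLC16A1 (MCT1) and SLC16A3 (MCT4) averaged 28.8 ± 9.86 and 16.4 ± 5.55 RPKM. NDRG1, a stress-response gene, led the HIF targets at 114 ± 54.5 RPKM, and CA9, the cell-surface carbonic anhydrase that is widely used as a marker of hypoxic tumour tissue, was the lowest at 1.69 ± 1.28 RPKM. HIF1A and EPAS1 averaged 51.1 ± 14.9 and 45.5 ± 20.9 RPKM, within 1 SD of each other.

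HIF binds to DNA at the letters ACGTG or, less often, GCGTG. The promoters of 6 members are shown because the results turn on them: CA9 and ENO2 had the smallest adjusted p-values under RMC-7977, and BNIP3, SLC2A1, EGLN3 and HK2 varied with CA9 between tumours. These 6 were chosen after their values were seen. Each is the 250 bases before the RefSeq gene start in GRCh38.p14, written 5′ to 3′ along the gene's strand. RefSeq starts need not be those of the annotation behind the count table. Capitals mark ACGTG and GCGTG on either strand, so that CACGT and CACGC are their reverse complements.

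CA9 promoter, chr9:35673678-35673927, plus strand: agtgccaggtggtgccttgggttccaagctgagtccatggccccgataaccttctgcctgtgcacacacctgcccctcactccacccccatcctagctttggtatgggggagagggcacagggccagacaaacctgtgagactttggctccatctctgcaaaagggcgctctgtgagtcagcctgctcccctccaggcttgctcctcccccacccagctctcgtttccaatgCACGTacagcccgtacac
ENO2 promoter, chr12:6914330-6914579, plus strand: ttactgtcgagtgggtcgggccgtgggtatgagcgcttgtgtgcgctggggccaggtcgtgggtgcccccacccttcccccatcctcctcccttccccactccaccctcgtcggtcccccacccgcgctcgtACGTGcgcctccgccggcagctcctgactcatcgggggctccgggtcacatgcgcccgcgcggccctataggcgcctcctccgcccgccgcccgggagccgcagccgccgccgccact
BNIP3 promoter, chr10:131981924-131982173, minus strand: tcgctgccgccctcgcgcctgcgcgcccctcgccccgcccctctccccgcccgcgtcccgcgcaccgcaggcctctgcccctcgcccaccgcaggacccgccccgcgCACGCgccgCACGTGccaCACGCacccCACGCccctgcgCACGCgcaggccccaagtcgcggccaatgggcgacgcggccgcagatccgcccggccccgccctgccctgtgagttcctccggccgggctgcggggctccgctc
SLC2A1 promoter, chr1:42958869-42959118, minus strand: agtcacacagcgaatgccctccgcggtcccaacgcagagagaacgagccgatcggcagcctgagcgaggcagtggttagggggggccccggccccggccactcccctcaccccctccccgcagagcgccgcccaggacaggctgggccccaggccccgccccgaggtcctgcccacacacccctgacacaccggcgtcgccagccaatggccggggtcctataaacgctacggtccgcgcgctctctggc
EGLN3 promoter, chr14:33951075-33951324, minus strand: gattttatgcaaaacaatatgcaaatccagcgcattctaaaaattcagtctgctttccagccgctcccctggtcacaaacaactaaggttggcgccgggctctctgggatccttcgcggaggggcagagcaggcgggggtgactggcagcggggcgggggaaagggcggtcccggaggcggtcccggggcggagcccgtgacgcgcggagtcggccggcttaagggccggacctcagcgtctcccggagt
HK2 promoter, chr2:74833877-74834126, plus strand: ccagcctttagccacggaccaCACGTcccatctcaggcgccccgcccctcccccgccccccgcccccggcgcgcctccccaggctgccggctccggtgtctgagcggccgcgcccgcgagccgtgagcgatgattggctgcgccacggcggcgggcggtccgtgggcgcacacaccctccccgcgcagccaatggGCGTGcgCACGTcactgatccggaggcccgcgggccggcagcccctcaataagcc

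The CA9 window holds 1 such match, close to the gene start, the ENO2 window holds 1 and the HK2 window holds 3. The BNIP3 window holds 6, counting the palindrome CACGTG once on each strand. The SLC2A1 and EGLN3 windows hold none, which says only that these letters are not in this stretch. Promoters were found for 33 of the 38 members. The letters ACGTG occurred in 13 of them (39.4%), against 18.5% of all 35116 promoters of the same length, and either word in 21 of them (63.6%), against 43.2% of all promoters. Among the 9 HIF targets outside glycolysis with a promoter, 5 held ACGTG (55.6%), against 8 of 19 enzymes (42.1%). A match is a description of the letters and not a measured binding site.

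Under RMC-7977 the members with the smallest p-values were CA9, the neuronal-type enolase ENO2 and the lactate carrier SLC16A1, with log2 fold changes of −3.14, −1.71 and −0.75 relative to Vehicle. None of these passed the threshold of 0.05 on the Benjamini-Hochberg adjusted p of edgeR's quasi-likelihood test. The same test called 0 of the 38 members in this comparison, against 0.748% of all genes tested. DESeq2 called 3 members (CA9, ENO2 and SLC16A1), against 3.39% of all genes to which it gave an adjusted p. At an unadjusted p under 0.05 the edgeR test had 8 members below Vehicle, against 5.47% of all genes, and 1 above, against 4.87% of all genes, together 9 of 38, against 10.3%. The 2 groups did not overlap in 1 of 38 members, against 4.12% of all genes. Without the 4 libraries apart 4 members were called, CA9, ENO2, SLC16A1 and VEGFA, against 6.38% of all genes. Negative log2 fold changes were found for 29 of 38 members, against 50.7% of all genes, and the median was −0.25, against −0.01 over all genes.

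CA9 (ENSG00000107159) lies on hg38 chromosome 9 from 35673856 to 35681159. It was at 0.763, 0.238, 0 and 0.277 CPM in the 4 RMC-7977 tumours, against 0.914 at the lowest, 2.36 at the median and 6.12 at the highest of 6 Vehicle tumours. All 4 treated tumours lay below all 6 Vehicle tumours, as held in this direction for 1.9% of all genes. These levels rest on 8, 3, 0 and 4 reads, and in replicate 3, where none was counted, 3 reads would correspond to 0.255 CPM. The log2 fold change was −3.14 ± 0.76 (SE; 95% interval −4.72 to −1.56), with an adjusted p of 0.053 by edgeR's quasi-likelihood test. With each of 11 tumours left out in turn the edgeR adjusted p ran from 0.0254 without Trametinib replicate 4 to 0.174 without RMC-7977 replicate 2, and it was under 0.05 in 2 of the 11, the other being without Vehicle replicate 1 (0.0348). It was 0.104 with the compared groups only and 0.00174 by DESeq2.

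In the other drug groups CA9 overlapped Vehicle. It was at 1.29, 1.8, 0.737 and 3.52 CPM under RMC-4550, at 1.96, 1.77, 3.74 and 4.48 CPM under trametinib, and at 2.28, 2.48, 0.748 and 0.815 CPM under cobimetinib. Its log2 fold change relative to Vehicle was −0.61 ± 0.63 for RMC-4550, 0.07 ± 0.62 for trametinib and −0.84 ± 0.64 for cobimetinib (SE). Set directly against trametinib, RMC-7977 gave −3.21 ± 0.8 for CA9, with all 4 RMC-7977 tumours below all 4 Trametinib tumours (adjusted p = 0.077 by edgeR's quasi-likelihood test). Against RMC-4550 and against cobimetinib the same contrast was −2.53 ± 0.79 and −2.3 ± 0.79, with overlapping groups and edgeR adjusted p of 0.292 and 0.329.

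The gene ARHGEF39, which lies over part of CA9 on the opposite strand, had a log2 fold change of −0.59 ± 0.22 in the comparison of RMC-7977 with Vehicle (edgeR adjusted p = 0.272). It averaged 15.8 ± 2.9 CPM in RMC-7977 tumours and 23.8 ± 4.15 CPM in Vehicle tumours, above the level of CA9 in both groups. The share of CA9 counts that may come from it was not tested.

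**Figure D1:**
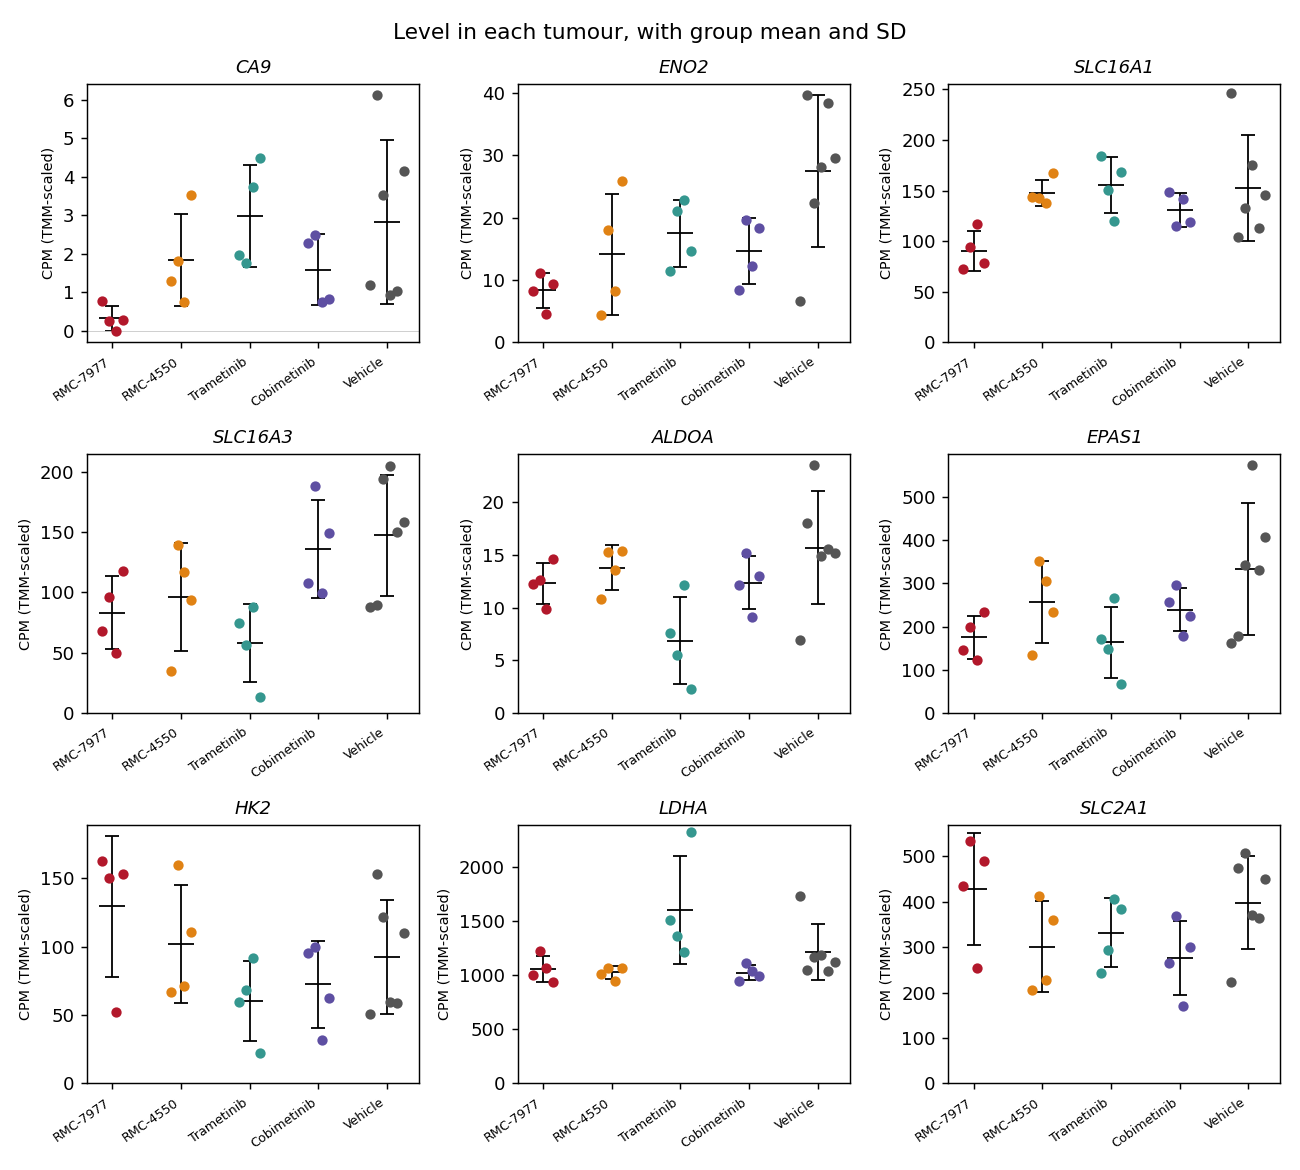
Level of 9 members in each of 22 tumours, in CPM on TMM-scaled library sizes (y axis), by treatment group (x axis); points are tumours, the long bar is the group mean and the whiskers are 1 SD. CA9 in the 4 RMC-7977 tumours (0 to 0.763 CPM) sits below every Vehicle tumour (0.914 to 6.12 CPM), and SLC16A3 in the 4 Trametinib tumours (12.8 to 87.8 CPM) sits below every Vehicle tumour (87.9 to 205 CPM).

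ENO2 (ENSG00000111674; hg38 chromosome 12, 6913745 to 6923698) was at 8.29, 11.2, 4.59 and 9.34 CPM in the RMC-7977 tumours, against 6.58, 28.9 and 39.7 CPM at the lowest, the median and the highest of the Vehicle tumours. Only Vehicle replicate 1, one of the libraries apart, kept the groups from separating. The log2 fold change was −1.71 ± 0.46 (95% interval −2.67 to −0.76; edgeR quasi-likelihood adjusted p = 0.0838). Over the same 11 leave-outs the edgeR adjusted p ran from 0.0201 without Vehicle replicate 1 to 0.251 without RMC-7977 replicate 3, and it was under 0.05 in 2, the other being without Trametinib replicate 4 (0.0485). DESeq2 gave 0.0108.

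ENO2 stood at 4.47, 18, 8.25 and 25.9 CPM under RMC-4550, at 11.4, 21, 22.8 and 14.7 CPM under trametinib, and at 8.43, 19.6, 12.2 and 18.3 CPM under cobimetinib. Cobimetinib tumours overlapped Vehicle through Vehicle replicate 1 alone, and RMC-4550 and Trametinib tumours through Vehicle replicate 3 as well. The log2 fold changes relative to Vehicle were −0.95 ± 0.44, −0.65 ± 0.44 and −0.91 ± 0.44 in that order. For the mean of the 4 drugs it was −1.06 ± 0.3, the smallest adjusted p of any member in the pooled comparison (0.406 by edgeR's quasi-likelihood test). The widely expressed enolase ENO1 had a log2 fold change of −0.5 ± 0.2 under RMC-7977 (edgeR adjusted p = 0.34), with 992 to 1240 CPM in RMC-7977 tumours and 1150 to 2020 CPM in Vehicle tumours.

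SLC16A1, the lactate carrier MCT1 (ENSG00000155380; hg38 chromosome 1, 112911847 to 112957013), was at 72.9, 94.6, 117 and 78.6 CPM in the RMC-7977 tumours, against 104, 140 and 247 CPM at the lowest, the median and the highest of the Vehicle tumours. RMC-7977 replicate 3 was the tumour that overlapped Vehicle. The log2 fold change was −0.75 ± 0.21 (95% interval −1.2 to −0.31; edgeR quasi-likelihood adjusted p = 0.105). With single tumours left out the edgeR adjusted p ran from 0.0342 without Vehicle replicate 2 to 0.304 without RMC-7977 replicate 1, and was under 0.05 in 2 of 11, the other being without Trametinib replicate 4 (0.0408). It was 0.188 with the compared groups only and 0.00957 by DESeq2. In the other drug groups SLC16A1 stood at 138 to 167 CPM (RMC-4550), 120 to 184 CPM (trametinib) and 115 to 149 CPM (cobimetinib), with log2 fold changes relative to Vehicle of −0.05 ± 0.21, 0.02 ± 0.21 and −0.22 ± 0.21. All 4 RMC-7977 tumours lay below all 4 RMC-4550 tumours and below all 4 Trametinib tumours, with log2 fold changes of −0.71 ± 0.23 and −0.78 ± 0.23 (edgeR adjusted p = 0.314 and 0.101).

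The other members at an unadjusted p under 0.05 for RMC-7977 against Vehicle were enzymes, PDK1 and EPAS1. The phosphofructokinases PFKM and PFKP, which catalyse the committed step, had log2 fold changes of −0.61 ± 0.21 and −0.56 ± 0.2 (edgeR quasi-likelihood adjusted p = 0.24 and 0.248). Pyruvate kinase PKM, which makes pyruvate, had −0.48 ± 0.19 (edgeR adjusted p = 0.325). PDK1, the kinase that keeps pyruvate out of the mitochondrial acetyl-CoA route, was the only member above Vehicle at that level, with 0.57 ± 0.26 (edgeR adjusted p = 0.417). PDK1 stood at 192, 190, 251 and 165 CPM in RMC-7977 tumours, against 74.1, 122 and 234 CPM at the lowest, the median and the highest in Vehicle tumours, so that the groups overlapped.

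For RMC-4550 against Vehicle edgeR's quasi-likelihood test called 0 of 38 members, against 0.0283% of all genes, and DESeq2 called none of the 38 either, against 0.165%. At an unadjusted p under 0.05 there were 2 members, ENO2 and PKM, both below Vehicle, against 1.42% of all genes in that direction and 4.24% in either. No member separated the 2 groups, against 1.42% of all genes. Negative log2 fold changes were found for 27 of 38 members, against 50.7% of all genes, with a median of −0.19, against 0 over all genes.

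For cobimetinib against Vehicle edgeR's quasi-likelihood test again called 0 of 38 members, against 0% of all genes, and DESeq2 called none of the 38, against 0.00252%. At an unadjusted p under 0.05 were EGLN3, P4HA1 and PKM, 3 of 38 members and all below Vehicle, against 2.31% of all genes in that direction and 3.3% in either. No member separated the groups, against 1.48% of all genes. Negative log2 fold changes were found for 35 of 38 members, against 51.2% of all genes, with a median of −0.29, against −0.01 over all genes. EGLN3, the oxygen-sensing prolyl hydroxylase that HIF induces, stood at 94.3, 142, 47.9 and 82.1 CPM under cobimetinib, against 122, 169 and 313 CPM at the lowest, the median and the highest under Vehicle. Cobimetinib replicate 2 was the tumour that overlapped Vehicle, and the log2 fold change was −1.08 ± 0.38 (unadjusted p = 0.00875; edgeR adjusted p = 1). P4HA1, a collagen prolyl hydroxylase, had −0.68 ± 0.29.

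Under trametinib the members farthest from Vehicle were SLC16A3, ALDOA and EPAS1, with log2 fold changes of −1.34, −1.17 and −1.02. edgeR's quasi-likelihood test called 0 of 38 members, against 0% of all genes, and DESeq2 called 1 member, ALDOA, against 1.91% of all genes. At an unadjusted p under 0.05 the edgeR test had 8 members below Vehicle, against 7.17% of all genes, and 1 above, against 11.7%, together 18.8% of all genes. The groups did not overlap in 2 of 38 members, SLC16A3 and ANKRD37, against 1.17% of all genes. Negative log2 fold changes were found for 25 of 38 members, against 50.4% of all genes, with a median of −0.23, against −0.01 over all genes. Trametinib replicate 4, the library that stood farthest apart, belongs to this group, and without it 0 members were called, against 0.00556% of all genes. Without Trametinib replicate 3 edgeR called ALDOA, SLC16A3 and EPAS1, against 7.84% of all genes, and without Vehicle replicate 1 it called ALDOA, against 4.19%. Without the 4 libraries apart it called 7 members (GPI, PFKL, PFKP, ALDOA, SLC16A3, VEGFA and EPAS1), against 15.1% of all genes. The Vehicle tumours kept in that setting had GC correlations of 0.307 to 0.426, against −0.484, −0.413 and 0.0539 in Trametinib replicates 1, 2 and 3. The part of this difference in those calls was not tested. With GC correction and all tumours kept, edgeR called no member for trametinib against Vehicle.

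ALDOA (ENSG00000149925; hg38 chromosome 16, 30064164 to 30070457) was at 7.61, 5.5, 12.1 and 2.24 CPM under trametinib, against 6.95, 15.4 and 23.5 CPM at the lowest, the median and the highest under Vehicle. The overlap came from Vehicle replicate 1 again. The log2 fold change was −1.17 ± 0.33 (edgeR quasi-likelihood adjusted p = 0.103). With each of 10 tumours left out in turn the edgeR adjusted p ran from 0.014 without Trametinib replicate 3 to 0.661, and was under 0.05 in 2, the other being without Vehicle replicate 1 (0.047), and DESeq2 gave 0.0357. Without the 4 libraries apart it was −1.07 with an edgeR adjusted p of 0.00958. ALDOA stood at 12.2, 12.6, 9.86 and 14.6 CPM under RMC-7977, at 10.8, 15.3, 13.6 and 15.4 CPM under RMC-4550, and at 12.1, 15.2, 9.11 and 13 CPM under cobimetinib, all within the Vehicle range. AC093512.2, which shares exons with ALDOA, had a log2 fold change of 0.25 ± 0.63 under trametinib, with 11.5 CPM in Trametinib replicate 4 against at most 6.63 CPM in any Vehicle tumour.

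SLC16A3, the lactate carrier MCT4 that HIF induces (ENSG00000141526; hg38 chromosome 17, 82228397 to 82261129), was at 74.6, 56.6, 87.8 and 12.8 CPM under trametinib, against 87.9, 154 and 205 CPM at the lowest, the median and the highest under Vehicle. All 4 treated tumours lay below all 6 Vehicle tumours, though Trametinib replicate 3 lay close to Vehicle replicate 1, as held in this direction for 0.629% of all genes. The log2 fold change was −1.34 ± 0.43 (edgeR quasi-likelihood adjusted p = 0.124), and −1.15 with an adjusted p of 0.0143 without the 4 libraries apart. With single tumours left out the edgeR adjusted p ran from 0.0402 to 0.67 and was under 0.05 in 1 of 10. SLC16A3 stood at 67.6, 96.5, 49.6 and 118 CPM under RMC-7977, at 34.8, 139, 117 and 93.7 CPM under RMC-4550, and at 108, 188, 99.1 and 149 CPM under cobimetinib. These groups all overlapped Vehicle, with log2 fold changes of −0.83 ± 0.42, −0.62 ± 0.41 and −0.12 ± 0.41.

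The balance of the 2 lactate carriers was compared as a log2 ratio within each tumour. SLC16A3 over SLC16A1 averaged −1.71 ± 1.39 (SD, n = 4) under trametinib and −0.07 ± 0.74 (SD, n = 6) under Vehicle, a difference of −1.64. The 2-sided exact permutation p was 0.0238, and 0.286 after Benjamini-Hochberg adjustment over 12 ratio comparisons. Without Trametinib replicate 4 the difference was −0.98, and without the 4 libraries apart −1.27. The longest transcripts hold 62.7% GC for SLC16A3 and 43.5% for SLC16A1. Trametinib replicates 1 to 4 had GC correlations of −0.484, −0.413, 0.0539 and −0.102 and ratios of −1.3, −1.41, −0.44 and −3.7. Vehicle replicate 1 had −0.538 and a ratio of −1.49, and the other Vehicle tumours 0.307 to 0.426 and ratios of −0.22 to 0.54. The part of GC content in this difference was not tested. The same ratio differed from Vehicle by −0.11 under RMC-7977, −0.72 under RMC-4550 and 0.08 under cobimetinib.

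EPAS1, the HIF-2 alpha subunit (ENSG00000116016; hg38 chromosome 2, 46293667 to 46386703), was at 172, 149, 267 and 67.7 CPM under trametinib, against 162, 337 and 574 CPM at the lowest, the median and the highest under Vehicle. The log2 fold change was −1.02 ± 0.37 (edgeR quasi-likelihood adjusted p = 0.162). Under RMC-7977 EPAS1 stood at 145, 198, 123 and 233 CPM, with −0.93 ± 0.36 (edgeR adjusted p = 0.317). It stood at 134, 351, 306 and 233 CPM under RMC-4550 and at 257, 297, 179 and 224 CPM under cobimetinib, with −0.38 ± 0.36 and −0.48 ± 0.36. RMC-7977, Trametinib and Cobimetinib tumours overlapped Vehicle through Vehicle replicates 1 and 2 alone.

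HIF1A, the HIF-1 alpha subunit, whose protein rather than transcript is the oxygen-regulated step, stayed within the Vehicle range of 161 to 335 CPM (median 269) except in Trametinib replicate 4. It was at 204, 208, 245 and 201 CPM under RMC-7977, at 304, 317, 276 and 236 CPM under RMC-4550, at 289, 214, 205 and 152 CPM under trametinib, and at 222, 211, 242 and 185 CPM under cobimetinib. Its log2 fold changes relative to Vehicle were −0.29 ± 0.21, 0.11 ± 0.2, −0.29 ± 0.21 and −0.29 ± 0.21 in that order, with intervals that reached from −0.72 to 0.53.

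The first steps of glycolysis gave no separation from Vehicle. HK2, the hexokinase that tumours and hypoxic cells induce, was at 163, 150, 52.1 and 153 CPM under RMC-7977, at 67, 160, 71.6 and 111 CPM under RMC-4550, at 59.6, 68.2, 91.7 and 21.9 CPM under trametinib and at 95.2, 100, 31.7 and 62.7 CPM under cobimetinib, against 51.1, 85.1 and 153 CPM at the lowest, the median and the highest under Vehicle. Its log2 fold change was 0.49 ± 0.4 under RMC-7977 and −0.61 ± 0.42 under trametinib. The contrast of these drugs was 1.1 ± 0.45 (edgeR quasi-likelihood adjusted p = 0.207). The ratio of HK2 to the constitutive hexokinase HK1 differed from Vehicle by 0.5 for RMC-7977, 0.57 for RMC-4550, −0.13 for trametinib and −0.23 for cobimetinib on the log2 scale (2-sided exact permutation adjusted p = 0.495 to 0.825).

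SLC2A1, which brings glucose into the cell, was at 434, 534, 255 and 491 CPM under RMC-7977, at 206, 412, 227 and 361 CPM under RMC-4550, at 243, 295, 406 and 384 CPM under trametinib and at 265, 368, 171 and 300 CPM under cobimetinib, against 223, 410 and 508 CPM at the lowest, the median and the highest under Vehicle. Every group overlapped Vehicle, and the log2 fold changes lay between −0.53 ± 0.27 under cobimetinib and 0.1 ± 0.27 under RMC-7977. SLC2A3 was counted with only 4 to 70 reads per tumour, and the 95% intervals of its log2 fold changes reached from −2.25 to 1.7.

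GPI, which turns glucose 6-phosphate into fructose 6-phosphate, was at 163, 174, 98.5 and 217 CPM under RMC-7977, at 99.4, 311, 194 and 201 CPM under RMC-4550, at 115, 125, 212 and 71.8 CPM under trametinib and at 225, 260, 109 and 169 CPM under cobimetinib, against 87.7, 240 and 331 CPM at the lowest, the median and the highest under Vehicle. RMC-7977 and Trametinib tumours overlapped Vehicle through Vehicle replicate 1 alone, and the log2 fold change under trametinib was −0.84 ± 0.36 (edgeR quasi-likelihood adjusted p = 0.221). PFKP was at 130, 158, 95.5 and 146 CPM under RMC-7977, at 105, 210, 174 and 180 CPM under RMC-4550, at 140, 127, 164 and 133 CPM under trametinib and at 156, 211, 117 and 169 CPM under cobimetinib, against 152, 196 and 247 CPM at the lowest, the median and the highest under Vehicle. Under RMC-7977 and under trametinib 3 of 4 tumours lay below every Vehicle tumour, with log2 fold changes of −0.56 ± 0.2 and −0.48 ± 0.2.

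LDHA, which turns pyruvate into lactate, was the 1 member above Vehicle at an unadjusted p under 0.05 for trametinib. It was at 1510, 1360, 1210 and 2320 CPM under trametinib, against 1040, 1140 and 1730 CPM at the lowest, the median and the highest under Vehicle, with a log2 fold change of 0.39 ± 0.19 (edgeR quasi-likelihood adjusted p = 0.257). Under the other drugs LDHA was at 997, 1220, 1070 and 934 CPM (RMC-7977), at 1010, 1070, 947 and 1070 CPM (RMC-4550) and at 949, 1110, 1040 and 995 CPM (cobimetinib). All 4 Trametinib tumours thus lay above all 4 RMC-4550 and all 4 Cobimetinib tumours. RMC-4550 against trametinib gave −0.64 ± 0.21 for LDHA (edgeR adjusted p = 0.214), and trametinib against cobimetinib gave 0.64 ± 0.21 (edgeR adjusted p = 0.193). The log2 ratio of LDHA to LDHB, the subunit that favours the reverse reaction, differed from Vehicle by 0.04 for RMC-7977, −0.32 for RMC-4550, 0.19 for trametinib and −0.4 for cobimetinib (2-sided exact permutation adjusted p = 0.495 to 0.862).

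VEGFA, the vessel growth factor, was at 193, 168, 126 and 161 CPM under RMC-7977, at 175, 238, 159 and 285 CPM under RMC-4550, at 143, 181, 209 and 34.7 CPM under trametinib and at 194, 233, 170 and 184 CPM under cobimetinib, against 116, 262 and 326 CPM at the lowest, the median and the highest under Vehicle. The overlap under RMC-7977, trametinib and cobimetinib came from Vehicle replicate 1 alone, the other 5 Vehicle tumours lying at 220 CPM or more, except that Cobimetinib replicate 2 also exceeded Vehicle replicate 5. Its log2 fold change was −0.6 ± 0.33 under RMC-7977 and −0.79 ± 0.34 under trametinib (edgeR quasi-likelihood adjusted p = 0.582 and 0.222). Without the 4 libraries apart the edgeR adjusted p was 0.0314 and 0.024, at −0.65 and −0.63.

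**Figure D2:**
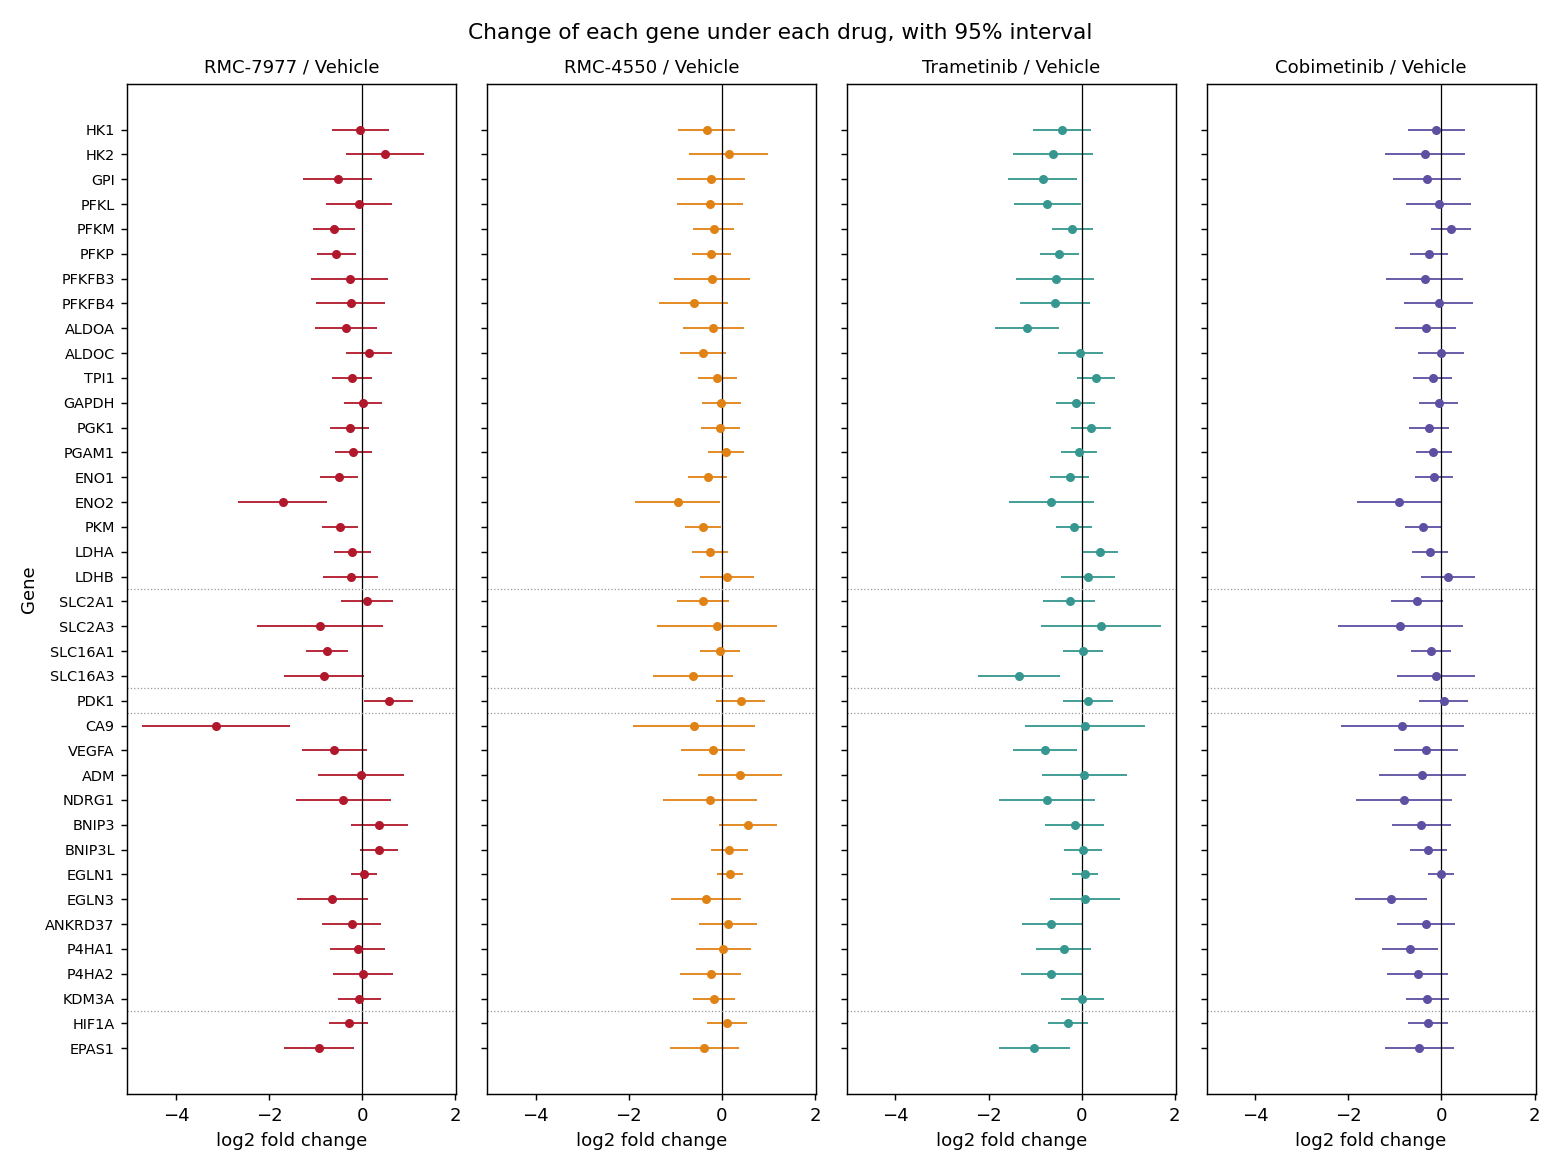
Log2 fold change relative to Vehicle (x axis) of all 38 members (y axis, grouped by role with dotted lines) under each drug, from edgeR's quasi-likelihood fit; points are estimates and bars are 95% intervals not adjusted for the number of genes. The widest departure is CA9 under RMC-7977 (−3.14), and under cobimetinib 35 of 38 points lie left of 0.

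The other HIF targets spread to both sides of Vehicle under RMC-7977, RMC-4550 and trametinib, and under cobimetinib all 12 HIF targets had negative log2 fold changes. None reached an unadjusted p under 0.05 in a comparison with Vehicle apart from those named above and ANKRD37 under trametinib. NDRG1 was at 885, 1130, 393 and 940 CPM in RMC-7977 tumours, at 595, 1340, 409 and 1390 CPM in RMC-4550 tumours, at 462, 783, 1190 and 217 CPM in Trametinib tumours and at 515, 1130, 233 and 666 CPM in Cobimetinib tumours, against 385, 1060 and 1830 CPM at the lowest, the median and the highest in Vehicle tumours. Every group overlapped Vehicle, and the log2 fold changes of NDRG1 ran from −0.81 ± 0.5 under cobimetinib to −0.26 ± 0.49 under RMC-4550. BNIP3 had 0.37 ± 0.3 for RMC-7977, 0.56 ± 0.3 for RMC-4550, −0.15 ± 0.3 for trametinib and −0.43 ± 0.3 for cobimetinib. ADM, a vessel-widening peptide, had 0.39 ± 0.44 under RMC-4550 and −0.42 ± 0.45 under cobimetinib. EGLN1, the main oxygen-sensing prolyl hydroxylase, lay within 0.17 of Vehicle under every drug (SE 0.14).

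Among the enzymes not yet given, the triose isomerase TPI1 and phosphoglycerate kinase PGK1 stood at 0.3 ± 0.2 and 0.2 ± 0.2 under trametinib and at −0.22 ± 0.2 and −0.27 ± 0.2 under RMC-7977. PFKFB3 and PFKFB4, which set the level of the activator of phosphofructokinase, were negative under all 4 drugs, from −0.61 ± 0.36 (PFKFB4, RMC-4550) to −0.06 ± 0.36 (PFKFB4, cobimetinib). HK1, ALDOC, PGAM1 and LDHB had log2 fold changes between −0.42 ± 0.3 (HK1, trametinib) and 0.14 ± 0.28 (LDHB, cobimetinib). None of these reached an unadjusted p under 0.05 against Vehicle.

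Enzymes and HIF targets outside glycolysis were described apart. Of 19 enzymes, 16 had a negative log2 fold change for RMC-7977, 16 for RMC-4550, 15 for trametinib and 17 for cobimetinib, with medians of −0.25, −0.23, −0.26 and −0.19. Of 12 HIF targets, 8, 6, 6 and 12 were negative in the same order, with medians of −0.08, −0.07, −0.07 and −0.42. The median over all genes lay between −0.01 and 0 in each of these comparisons. The 4 comparisons share the 6 Vehicle tumours, so their counts are not independent of each other.

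The enzymes together took 0.802% ± 0.0426 of all counts in RMC-7977 tumours, 0.845% ± 0.0605 in RMC-4550 tumours, 0.889% ± 0.131 in Trametinib tumours and 0.872% ± 0.108 in Cobimetinib tumours (SD, n = 4 each), against 0.955% ± 0.0936 under Vehicle (SD, n = 6). The 12 HIF targets took 0.161% ± 0.0405, 0.18% ± 0.0723, 0.143% ± 0.0717 and 0.135% ± 0.0449 under the drugs in that order, against 0.205% ± 0.0713 under Vehicle. GAPDH, the most abundant enzyme, had log2 fold changes between −0.13 ± 0.2 and 0.01 ± 0.2.

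For the mean of the 4 drugs against Vehicle edgeR's quasi-likelihood test called 0 of 38 members, against 0.125% of all genes, and DESeq2 called none of the 38, against 0.378%. At an unadjusted p under 0.05 were 8 members, all below Vehicle, against 3.68% of all genes in that direction and 6.12% in either: PFKP, ALDOA, ENO1, ENO2, PKM, SLC16A3, CA9 and EPAS1. Negative log2 fold changes were found for 33 of 38 members, against 50.9% of all genes, including 18 of 19 enzymes, with a median of −0.27 over the 38. Without the 4 libraries apart ALDOA, ENO2, SLC16A3 and VEGFA were called, with edgeR adjusted p of 0.0424, 0.0134, 0.0497 and 0.027, against 3.99% of all genes called in that setting.

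Direct comparisons of the drugs called no member by edgeR's quasi-likelihood test. The share of all genes called was 0.0906% for RMC-7977 against RMC-4550, 0.408% for RMC-7977 against trametinib, 0.278% for RMC-7977 against cobimetinib, 0% for RMC-4550 against trametinib, 0.0283% for RMC-4550 against cobimetinib and 0% for trametinib against cobimetinib. At an unadjusted p under 0.05 the members numbered 3, 8, 6, 4, 2 and 6 in that order, against 7.39%, 18.2%, 7.45%, 12.3%, 6.2% and 16.7% of all genes. Groups that did not overlap were found for 2, 7, 4, 1, 1 and 3 members, against 8%, 6.14%, 10.5%, 3.98%, 8.3% and 7.01% of all genes. DESeq2 called LDHA, SLC16A1 and CA9 for RMC-7977 against trametinib, where it called 4.18% of all genes. It called PFKM for RMC-7977 against cobimetinib (1.88% of all genes) and LDHA for RMC-4550 against trametinib (0.958%). DESeq2 called no member in the other 3 comparisons, where at most 1.68% of all genes were called. For RMC-7977 against trametinib edgeR called CA9 without Trametinib replicate 1 (2.32% of all genes) or without Trametinib replicate 2 (3.34%), and CA9, SLC16A1, LDHA and ALDOA without Trametinib replicate 3 (7.07%).

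The HIF targets were also compared between RMC-7977 and cobimetinib. Of the 12, 2 had a negative log2 fold change, CA9 among them, against 51% of all genes, and 10 had a positive one, with a median over the 12 of 0.39. BNIP3L, a receptor for mitochondrial removal, stood higher in all 4 RMC-7977 tumours than in all 4 Cobimetinib tumours (0.64 ± 0.22; edgeR quasi-likelihood adjusted p = 0.308), as did P4HA1 (0.58 ± 0.31) and PDK1 (0.53 ± 0.28). PFKM lay lower in all 4 RMC-7977 tumours (22.6 to 31.6 CPM) than in all 4 Cobimetinib tumours (35.9 to 64.6 CPM), with −0.81 ± 0.23 (edgeR adjusted p = 0.173). Groups did not overlap in these 4 of 38 members, against 10.5% of all genes, so such a separation was no more frequent here than elsewhere. For RMC-4550 against cobimetinib all 12 HIF targets were positive, with a median of 0.45, where 47.6% of all genes were negative, and BNIP3, the related mitochondrial receptor, had the smallest edgeR adjusted p (0.438) at 0.99 ± 0.33.

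**Figure D3:**
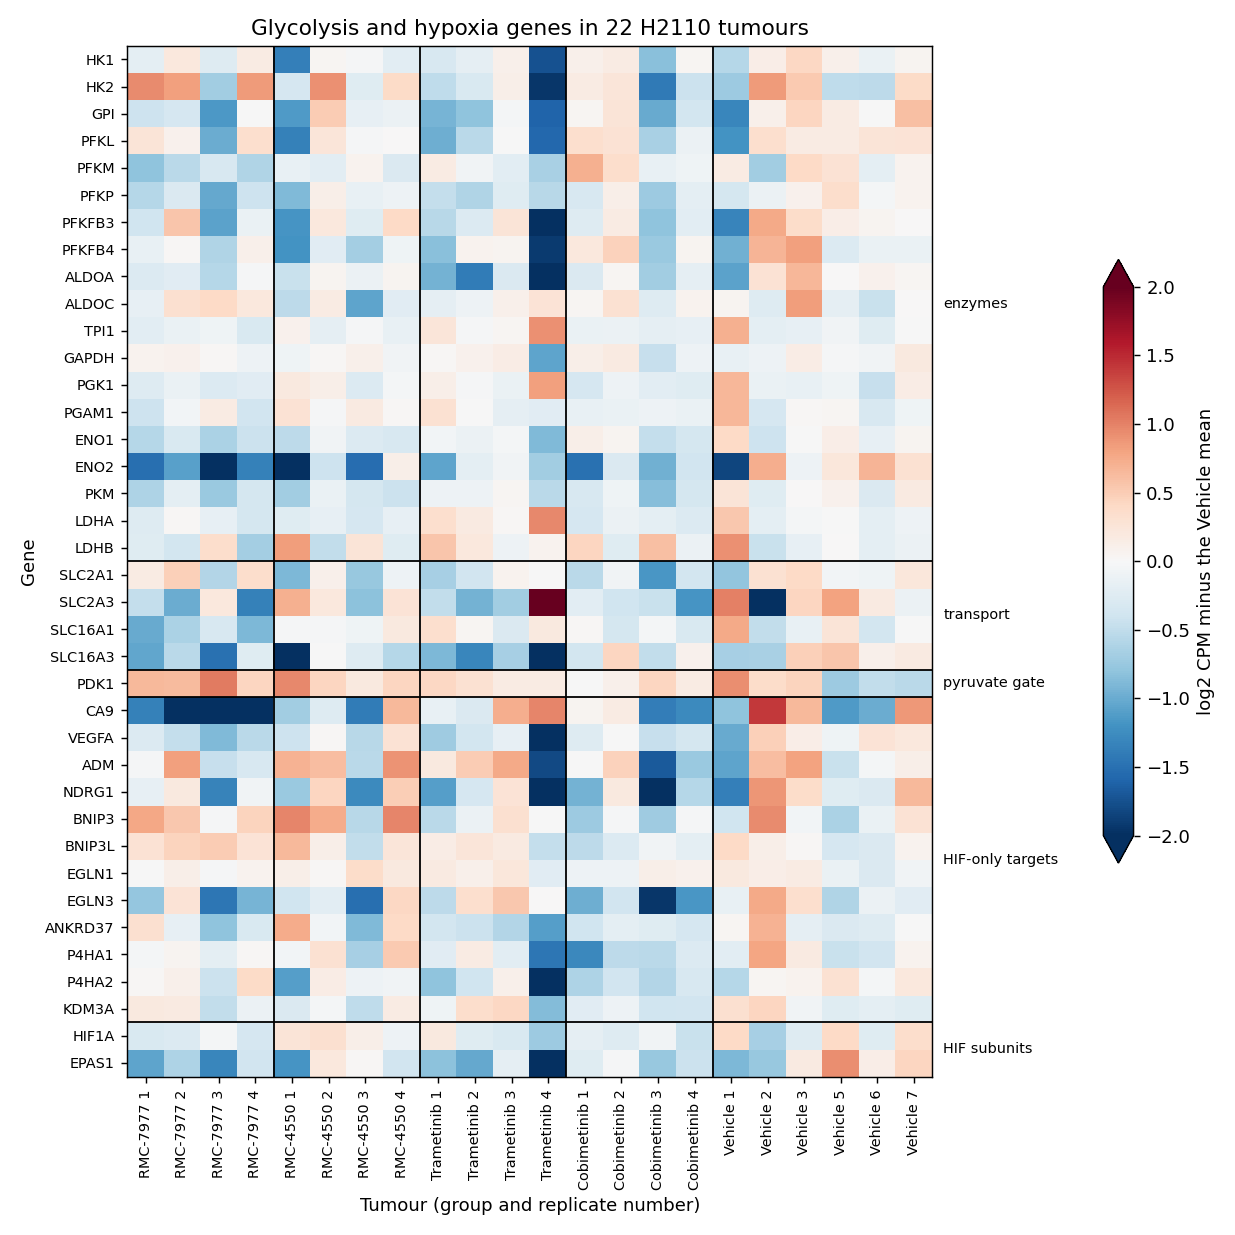
Log2 CPM of each of 38 members (rows, grouped by role) in each of 22 tumours (columns, grouped by treatment), minus the mean of the 6 Vehicle tumours; red is above and blue below that mean, and the colour scale stops at 2 either way. CA9 is blue in all 4 RMC-7977 tumours, and Trametinib replicate 4, Cobimetinib replicate 3, RMC-7977 replicate 3 and RMC-4550 replicate 1 are blue across many enzymes. Among Vehicle tumours, replicate 1 is blue in ENO2, ALDOA, GPI and HK2 and red in LDHA.

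Tumours of the same group differed widely in several HIF targets. The SD of log2 CPM within groups was 1.01 for CA9, 0.877 for NDRG1, 0.821 for ADM and 0.619 for EGLN3, against 0.16 for EGLN1, 0.243 for LDHA and 0.283 for GAPDH. Whether members varied together between tumours of 1 group was asked by correlating each with CA9 over 22 tumours, after removing the group means. CA9 itself rests on 0 to 76 reads per tumour. The same correlation was computed for all 17651 other genes tested. At an unadjusted within-group permutation p under 0.05 were 7 of 37 members with a positive r, against 5.44% of all genes, and 3 with a negative r, against 10.7%. With Benjamini-Hochberg adjustment over all genes no member passed 0.05, against 0% of all genes, the smallest adjusted p of any gene being 0.0706. A positive r was found for 24 of 37 members, against 46.4% of all genes. The planned adjustment over the 37 members alone passed 4, BNIP3, SLC2A1, EGLN3 and HK2, and a permutation p as low as theirs was held by 2.42% of all genes.

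BNIP3 had r = 0.71 and Spearman's rho = 0.69 (permutation p = 0.00103 and 0.00138; adjusted p of r over all genes = 0.133). SLC2A1 had r = 0.7 and rho = 0.66 (permutation p = 0.00178 and 0.00345; adjusted p of r over all genes = 0.138). These are a mitochondrial receptor and the glucose carrier. EGLN3 had r = 0.66 and rho = 0.62 (permutation p = 0.0034 and 0.00632; adjusted p of r over all genes = 0.171). HK2 had r = 0.64 and rho = 0.68 (permutation p = 0.00433 and 0.00227; adjusted p of r over all genes = 0.178). Without the 2 tumours farthest from the median in CA9, RMC-7977 replicate 3 and Vehicle replicate 2, r was 0.62 for BNIP3, 0.64 for SLC2A1, 0.57 for EGLN3 and 0.53 for HK2.

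NDRG1 came next with r = 0.59 and a permutation p of 0.00773, or 0.199 adjusted over all genes. Over the 11 other HIF targets 10 had a positive r, with a median of 0.34, and over the 19 enzymes 13 had a positive r, with a median of 0.15. PGAM1 (r = −0.54), LDHB (r = −0.52) and HIF1A (r = −0.5) lay at the other end, with permutation p of 0.027, 0.0297 and 0.0439, adjusted over all genes to 0.265, 0.271 and 0.298. Libraries shared GC-related deviations, and after a correction for GC content r was 0.72 for BNIP3, 0.63 for SLC2A1, 0.63 for EGLN3 and 0.49 for HK2, while it was −0.2 for PGAM1, −0.18 for LDHB and −0.25 for HIF1A. After that correction 4 members passed over the 37 alone, 3 of them among the first 4; HK2 did not, and 1 passed by both Pearson's r and Spearman's rho, against 4 without the correction. Without the 4 libraries apart r was 0.72, 0.6, 0.64 and 0.83 for BNIP3, SLC2A1, EGLN3 and HK2 over 18 tumours, and 7 members passed over the 37 alone, 2 of them among these 4. Adjusted over all genes no member passed in either setting, against 0% of all genes.

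**Figure D4:**
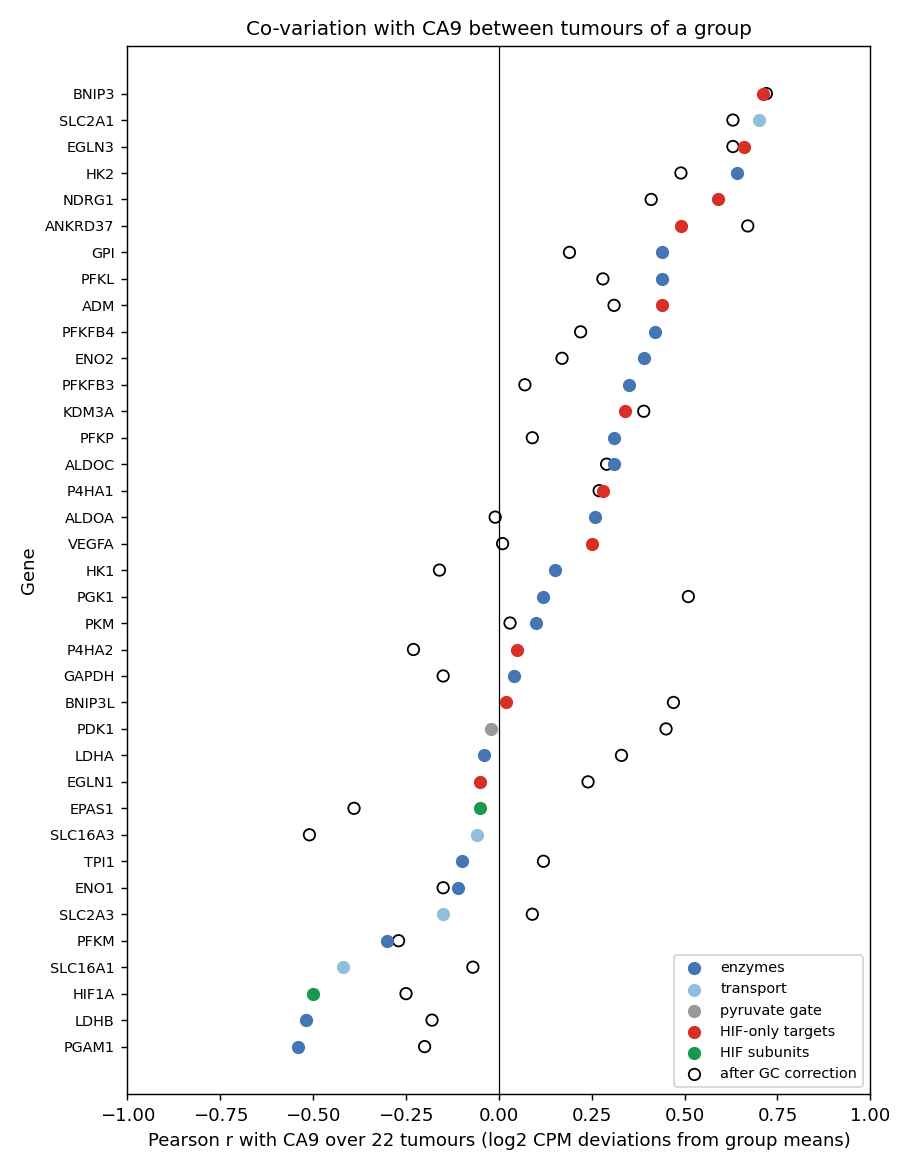
Pearson r of each of 37 members (y axis, ordered by r) with CA9 over 22 tumours (x axis), on log2 CPM deviations from group means; filled points are coloured by role and open circles show r after correction for GC content. BNIP3 (0.71), SLC2A1 (0.7), EGLN3 (0.66) and HK2 (0.64) stand at the top, and PGAM1, LDHB and HIF1A at the bottom.

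**Figure D5:**
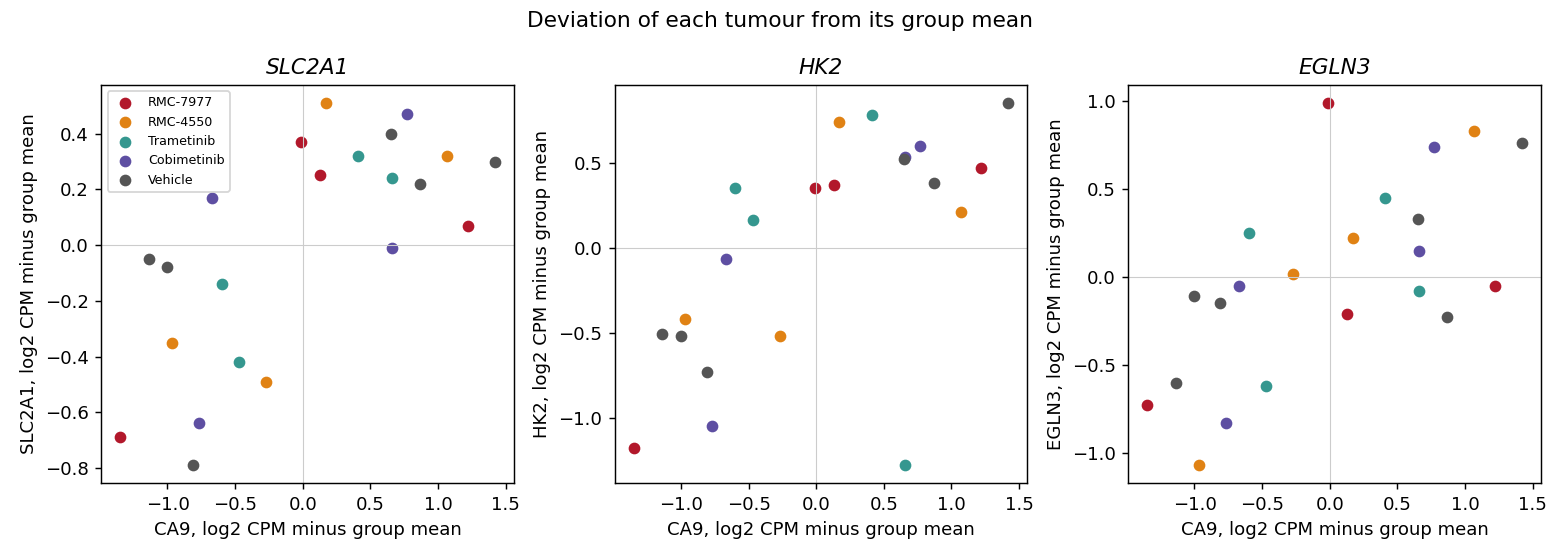
Deviation of each tumour from its group mean in log2 CPM, with CA9 on the x axis and SLC2A1, HK2 or EGLN3 on the y axis; each point is 1 of 22 tumours, coloured by treatment group. Tumours with more CA9 than their group mean mostly had more of the other gene too, and the exception at the bottom of the HK2 panel is Trametinib replicate 4 (CA9 0.66, HK2 −1.28).

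Genes around these pathways were read from further lists. Of 28 other HIF targets 27 were tested, and 1 of them was called under RMC-7977, against 0.748% of all genes. It was CA12, a second cell-surface carbonic anhydrase (ENSG00000074410, hg38 chromosome 15, 63321378 to 63382161), and it fell. CA12 was at 0.572, 1.74, 1.45 and 2.07 CPM in RMC-7977 tumours, below all Vehicle tumours, which held 2.9 to 7.71 CPM. CA12 had a log2 fold change of −1.96 ± 0.4 (edgeR quasi-likelihood adjusted p = 0.0194), and −2.12 ± 0.43 relative to trametinib (edgeR adjusted p = 0.0313). The adjusted p against Vehicle was 0.102, 0.0669 and 0.0575 without RMC-7977 replicate 1, 2 or 3. In the other 3 drug groups CA12 stood at 3.24 to 9.76 CPM and overlapped Vehicle. The median log2 fold change over the 27 genes was −0.1 for RMC-7977, −0.05 for RMC-4550, −0.11 for trametinib and −0.3 for cobimetinib. In that order 14, 16, 15 and 24 genes were negative, against 50.7%, 50.7%, 50.4% and 51.2% of all genes.

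No gene was called among 9 tested HIF regulators, 11 genes of mitochondrial pyruvate entry, 12 of the pentose phosphate and serine branches, 11 of gluconeogenesis and glycogen and 7 MYC-linked regulators in any comparison of a drug with Vehicle. Median log2 fold changes for RMC-7977 were 0.04, 0.21, −0.24, 0.04 and 0.18 in the order of these lists. For trametinib they were 0.04, 0.25, −0.18, −0.05 and −0.11, for RMC-4550 0.04, 0.1, 0.18, −0.01 and −0.18, and for cobimetinib 0.01, 0.08, 0.04, −0.08 and 0.04. MYC itself had a log2 fold change of −0.87 ± 0.21 under RMC-7977 (edgeR quasi-likelihood adjusted p = 0.0556), −0.54 ± 0.21 for RMC-4550, −0.52 ± 0.21 for trametinib and 0.15 ± 0.21 for cobimetinib. Of genes of ERK-pathway output, 6 of 9 tested were called lower under RMC-7977, against 0.748% of all genes called in either direction. They were DUSP4, SPRY4, ETV4, ETV5, PHLDA1 and the ERK phosphatase gene DUSP6 (−3.69 ± 0.54, edgeR adjusted p = 0.00099). DUSP6 fell under RMC-4550 too (−3.52 ± 0.53; edgeR adjusted p = 0.0191), a call that was lost with the replicate number as a block. The endothelial gene PECAM1 and the leukocyte gene LAPTM5 also fell under RMC-7977, with log2 fold changes of −1.71 and −3.75 (edgeR adjusted p = 0.0235 and 0.00591). The 8 endothelial markers, 5 of them tested, summed to 19.2 to 77.7 CPM in RMC-7977 tumours and 40.4 to 198 CPM in Vehicle tumours. The 8 myeloid markers, 4 of them tested, summed to 6.96 to 10.7 CPM in RMC-7977 tumours and 11.8 to 27.1 CPM in Vehicle tumours. CD68 was at 0 in all RMC-7977 tumours, and TYROBP was at 0 in all tumours of both groups. Fibroblast markers (1 of 8 tested) summed to 91.4 to 213 CPM in RMC-7977 tumours and 21.4 to 305 CPM in Vehicle tumours. DCN and PDGFRA were at 0 in all RMC-7977 tumours, and POSTN was at 0 in all tumours of both groups. In Trametinib tumours the endothelial, myeloid and fibroblast sums were 55.4 to 226, 15.2 to 38.7 and 59.5 to 142 CPM. Skeletal muscle markers (2 of 8 tested) summed to 13.9 to 28.4 CPM in RMC-7977 tumours, 14.6 to 55 CPM in Trametinib tumours and 15.4 to 28 CPM in Vehicle tumours. Of 6 erythroid markers none was tested, and they summed to at most 53 CPM in Trametinib tumours and 0.731 CPM in Vehicle tumours. The part of non-tumour cells in the values of the 38 genes was not tested.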

How the data were processed

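RNA was sequenced from 22 tumours with strand-specific libraries, per the labels' protocols. The authors deposited raw read counts per gene, made with fastp, HISAT2 2.0.5 and featureCounts 1.5.0-p3 on hg38, per the submitters' processing notes, which also name DESeq2 1.20.0 and edgeR 3.22.5. All 58735 genes stood at the same position in GENCODE 29, used here for GC content and overlaps. The members and all gene lists were chosen with earlier results of these data known.

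Genes were kept by edgeR's filterByExpr (minimum count 10, 99.718% of counts), scaled by TMM and fitted with edgeR 4.0.16 in R 4.3.3 (robust quasi-likelihood, 5 group means, 11 comparisons), with Benjamini-Hochberg adjustment over 17652 genes and a threshold of 0.05. SE is the log2 fold change divided by the root of the F statistic. CPM and RPKM were computed from the deposited counts, log2 CPM with a prior count of 2. The biological coefficient of variation was 0.3684. Full values are given for the 8 members of smallest adjusted p in any comparison with Vehicle and for CA9, SLC2A1, HK2, LDHA, VEGFA, HIF1A and EPAS1. The 6 promoters shown, the genes in the figures and the following of CA12 through other settings were chosen after values were seen. Ratios were compared by 2-sided exact permutation of tumours. Correlations used 100000 within-group permutations, adjusted over the 37 members as planned and, as an addition made after the data were seen, over all 17651 other genes, with numpy 2.4.6, scipy 1.17.1 and pandas 2.3.3. The script was tested on simulated data.

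Alternatives were DESeq2 1.42.0, RLE factors, library size only, no filter, mean CPM of at least 1, the compared groups only, the replicate number as a block, GC correction, 1 surrogate variable (sva 3.50.0), and leaving out each tumour, or Trametinib replicate 4 with RMC-7977 replicate 3, or the 4 libraries apart. Deviations of same-numbered RMC-4550 and Vehicle tumours correlated at 0.711, 0.17 and 0.171, and those of Trametinib and Vehicle tumours at 0.136, 0.19 and 0.202. The main fit and the ratio permutations used no pairing for any drug. When the alternatives with the replicate number were read, these 2 drugs were taken as paired with Vehicle from the data alone. The other drugs were not. No label says what the number stands for. The value of 0.711 joins 2 libraries with GC correlations of −0.584 and −0.538. Among drugs, same-numbered RMC-7977 and Cobimetinib tumours reached 0.376. Whether tumours of 1 number belong together was not tested. No 2 libraries of 1 group agreed within sampling noise. Depth limits CA9 and SLC2A3 most.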

Additional observations from a re-analysis of the deposited data

Results flagged for a closer look

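The tumours within each group were compared for the 13 members described in full, 65 sets of values in all, and a tumour far from the rest of its group was found 5 times; chance gives about 1 in 20. Vehicle replicate 1 accounts for 4 of them. It held ENO2 at 6.58 CPM, where the other Vehicle tumours held 22.4 to 39.7 CPM. It held ALDOA at 6.95 CPM (others 14.9 to 23.5 CPM) and GPI at 87.7 CPM (others 218 to 331 CPM). It held LDHA at 1730 CPM, above the 1040 to 1190 CPM of the others. RMC-7977 replicate 3 held HK2 at 52.1 CPM, where the other RMC-7977 tumours held 150 to 163 CPM. The GC correlations of these libraries were −0.538 and −0.424, and their part in these values was not tested.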

How the results depend on the processing

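No direction of a called value reversed. For RMC-7977 against Vehicle the number of members called was 0 by the planned test and 3 by DESeq2 (3.39% of all genes called). It was 3 with GC correction (287 of 17652 genes called) and 3 with 1 surrogate variable (603 of 17652). It was 1 without Trametinib replicate 4 and RMC-7977 replicate 3 (369 of 17856) and 4 without the 4 libraries apart (6.38%). With single tumours left out it was 0 to 3, the 3 being without Trametinib replicate 4 (541 of 17980). For trametinib against Vehicle it was 1 by DESeq2 (1.91% of all genes) and 7 without the 4 libraries (15.1%). With single tumours left out it was 0 to 3, the 3 being without Trametinib replicate 3 (7.84%). For the mean of the drugs it was 4 without the 4 libraries (3.99% of all genes). For RMC-7977 against trametinib it was 3 by DESeq2 (4.18% of all genes) and 2 with GC correction (194 of 17652 genes). It was 1 without the 4 libraries (941 of 17761). With single tumours left out it was 0 to 4, the 4 being without Trametinib replicate 3 (7.07%). For RMC-7977 against RMC-4550 it was 1 without the 4 libraries (192 of 17761). For RMC-7977 against cobimetinib it was 1 by DESeq2 (1.88% of all genes) and 1 with 1 surrogate variable (463 of 17652 genes). It was 1 with the compared groups only (265 of 16193) and 4 without the 4 libraries (674 of 17761). For RMC-4550 against trametinib DESeq2 called 1 (0.958% of all genes). The remaining comparisons stayed at 0 in every setting. With the replicate block 0 members were called in all 11 comparisons, and for RMC-7977 against Vehicle 2 genes in all. The drugs taken as paired had no member called against Vehicle without the block either, so for them it could remove no call. With the block CA9 for RMC-7977 against Vehicle was −3.66 (edgeR adjusted p = 0.249), and CA12 was −1.77 (edgeR adjusted p = 0.45). The pooled comparison has no separate fit with the compared groups only. None of the 12 ratio differences was called, and near 0 they changed sign. SLC16A3 over SLC16A1 was 0.04 under RMC-7977 and −0.09 under cobimetinib with GC correction, −0.2 under cobimetinib without the 4 libraries, and ran from −0.4 to 0.24 under RMC-7977 and −0.2 to 0.26 under cobimetinib with single tumours left out. LDHA over LDHB was −0.12 under trametinib without the 4 libraries. Paired by replicate number it was −0.06 under RMC-7977, a drug not taken as paired, and −0.04 under trametinib (3 pairs, too few to pass). With single tumours left out it ran from −0.08 to 0.23 under RMC-7977 and −0.04 to 0.32 under trametinib. HK2 over HK1 ran from −0.25 to 0.01 under trametinib. Members correlated with CA9, adjusted over the 37 alone, numbered 7 without the 4 libraries, against 4; adjusted over all genes, a setting chosen after seeing the data, they numbered 0 in both. The cause of these shifts was not tested. CA9 rests on 0 to 76 reads per tumour, which limits what can be read from it.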
